A study of Mus musculus with 13 samples.

Results

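miR-31-5p and the miR-34 family are microRNAs (miRNAs, short RNAs that repress matching messenger RNAs) that were counted in vesicles from cultured tumour cells and in vesicles from mouse plasma. The members were chosen by name, as mmu-miR-31-5p and every row of miR-34a, miR-34b and miR-34c (mmu-miR-34c-5p among them), which gave 6 of the 1452 miRNAs listed in the series (the prefix mmu- for mouse is left out from here on). Of these 6, 5 had a count in tumour-cell vesicles and 4 in plasma. They were singled out as possible tumour tracers because earlier results of these data showed them to be high in tumour-cell vesicles and low in plasma, so the contrast between the materials is described here without a test. The first group is tumour microvesicles (TMVs) from cultured C26 cells (colon adenocarcinoma 26, strain Balb/C), collected from medium without serum after 48 h (3 libraries). The second is plasma vesicles of Balb/C mice that received C26 cells under the skin of the back and were killed on day 14, labelled as cachectic (6 libraries). The third is plasma vesicles of healthy control Balb/C mice (4 libraries). The names of control replicates 2 and 3 carry 2 numbers each, which the labels do not explain. The labels give no age, no treatment of the controls and no number of animals behind a library, and the TMVs come from 1 cell line. The p-values therefore measure only the spread between these libraries, which may be technical.

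The miR-34 family is best known as a target of the tumour suppressor p53, which raises its transcription after DNA damage, and its members repress messengers of the cell cycle and of cell survival. miR-34a is the widely expressed member, while miR-34b and miR-34c are made from 1 shared transcript and are abundant in testis and in ciliated epithelia. miR-31 is often raised in colorectal and squamous tumours and lies near the Cdkn2a tumour suppressor locus. A miRNA recognises its targets mainly through its seed, bases 2 to 8 from the 5′ end.

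The mature sequences show which members can share targets and which could share reads. They were taken from RefSeq (GRCm38.p6), where 5 of the 6 members matched, all but miR-34c-5p, and are written 5′ to 3′ with the seed in capitals.
miR-31-5p: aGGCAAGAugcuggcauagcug
miR-34a-5p: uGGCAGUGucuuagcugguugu
miR-34b-5p: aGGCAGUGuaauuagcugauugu
miR-34b-3p: aAUCACUAacuccacugccauc
miR-34c-3p: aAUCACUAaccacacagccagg
miR-449a-5p: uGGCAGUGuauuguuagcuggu
Among the sequences printed, miR-34a-5p and miR-34b-5p share the seed GGCAGUG with miR-449a-5p, a relative made in ciliated cells. miR-449c-5p carries it too. The 3p arms miR-34b-3p and miR-34c-3p share a different seed, AUCACUA, which no other mature sequence of the table carries. The seed of miR-31-5p was found in no other mature sequence of the table. The closest other mature sequence to miR-31-5p differed from it at 8 of 22 bases. miR-34b-3p and miR-34c-3p were identical at 17 of 22 positions, including the first 10, so reads cut short at the 3′ end could be shared between them, and their split is uncertain because no source states how such reads were counted.

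The Mir31 hairpin spans chr4:88910557-88910662 (minus strand, GRCm38.p6) and overlaps an exon of the long non-coding RNA gene AL805899.1 on the same strand. It is shown because nearly all of its counts came from 1 arm, miR-31-5p, which is in capitals.
Mir31: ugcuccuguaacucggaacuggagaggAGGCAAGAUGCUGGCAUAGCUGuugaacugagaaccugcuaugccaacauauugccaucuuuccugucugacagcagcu
Mir34b spans chr9:51103562-51103645 and Mir34c spans chr9:51103034-51103110, both on the minus strand, with 451 bases between the 2 hairpins. Both lie inside the span of Btg4, a protein-coding gene on the opposite strand, outside its exons. The Mir34b hairpin is shown with the counted arm, miR-34b-3p, in capitals.
Mir34b: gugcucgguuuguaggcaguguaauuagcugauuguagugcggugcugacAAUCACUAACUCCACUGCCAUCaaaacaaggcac
Mir34a lies apart from them, at chr4:150068454-150068555 (plus strand), overlapping Gm37795, a transcript awaiting experimental support.

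Depth differed between the groups. The total count ran from 112357 to 170571 in TMV libraries, from 9828 to 76376 in C26-bearing plasma and from 7962 to 131385 in control plasma. A count of 0, taken to allow up to 3 counts, corresponded to 39.3 to 305.3 CPM (the count scaled to a common library total) in the C26-bearing libraries and to 22.8 to 376.8 CPM in the control libraries. One miRNA, miR-5119, took over 20% of the counts in 5 plasma libraries, C26-bearing replicates 1 to 4 and control replicate 4, and at most 2.55% in the other 5. The sample numbers in the labels of the 5 libraries rich in miR-5119 run from 18 to 22. The tissue labels were compared with marker miRNAs. In TMVs the 11 epithelial and gut miRNAs summed to 0.0560% to 0.0844% of counts, with 7 detected and miR-200a-3p, miR-141-3p, miR-429-3p and miR-205-5p at 0. They summed to 0.669% to 2.49% in C26-bearing plasma and 1.27% to 4.47% in control plasma. The 5 mesenchymal miRNAs, led by miR-143-3p, summed to 5.39% to 7.70% in TMVs, against 0.382% to 2.997% in C26-bearing and 0.967% to 2.35% in control plasma. The epithelial and gut miRNAs were thus uneven in the vesicles of a line labelled as colon adenocarcinoma. In TMVs miR-192-5p averaged 472 CPM, miR-203-3p 99.3 CPM and miR-194-5p 76.1 CPM, against 4.23 CPM for miR-200c-3p and 2.97 CPM for miR-215-5p. Unlike the other mesenchymal miRNAs listed, miR-145a-5p was not higher in TMVs than in C26-bearing plasma, at means of 144 and 200 CPM. The liver miRNA miR-122-5p held 0.0198% to 0.0375% of TMV counts, 0.508% to 8.19% of C26-bearing plasma counts and 5.87% to 25.5% of control plasma counts. The 4 red cell miRNAs held 0.408% to 1.42% in TMVs, 3.38% to 52.7% in C26-bearing plasma and 5.88% to 31.3% in control plasma. The part of these marker levels in the differences described here was not tested.

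miR-31-5p was the most abundant member in TMVs. It had 1148, 639 and 820 counts in TMV replicates 1 to 3, which are shares of 0.784%, 0.569% and 0.481%. The mean share was 0.611% ± 0.156 (SD, n = 3), or 6110 ± 1557 CPM, rank 36 of the 1164 miRNAs listed for TMVs. Its neighbours in that order, miR-103-3p at 6193 ± 686 CPM and miR-27a-3p at 5949 ± 1327 CPM, did not differ from it beyond their spread. The 95% Wilson intervals of the 3 shares did not overlap, at 0.740% to 0.830%, 0.526% to 0.614% and 0.449% to 0.515%, so the libraries differed by more than the counting error that these intervals cover. The other arm, miR-31-3p, had 0, 1 and 1 counts, which puts the 5p arm at 1304 times the 3p arm over the pooled libraries (95% exact interval 361 to 10769, counting error only). Almost every Mir31 count in TMVs was thus the 5p arm. In plasma miR-31-3p had 1 count, in C26-bearing replicate 2.

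miR-34c-5p held most of the counts of its family. It had 263, 226 and 457 counts in TMV replicates 1 to 3, shares of 0.179%, 0.201% and 0.268%, with a mean of 0.216% ± 0.0461 (SD, n = 3) or 2162 ± 461 CPM and rank 58. Of the 1102 family counts in TMVs, 85.8% were counted as miR-34c-5p. The interval of TMV replicate 3, 0.245% to 0.294%, lay above those of replicate 1, 0.159% to 0.203%, and replicate 2, 0.177% to 0.229%. miR-31-5p was highest in replicate 1, where the share of miR-34c-5p was lowest but overlapped that of replicate 2 within counting error. The count of miR-34c-5p relative to that of miR-31-5p was 0.229 in replicate 1 (95% exact interval 0.200 to 0.262), 0.354 in replicate 2 (0.303 to 0.412) and 0.557 in replicate 3 (0.496 to 0.626). These intervals, which cover counting error only, do not overlap.

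The other products of the Mir34b and Mir34c pair were rarer. miR-34b-3p had 45, 21 and 41 counts in TMV replicates 1 to 3, or 245 ± 60.2 CPM (SD, n = 3). miR-34c-3p had 10, 19 and 14 counts, or 106.5 ± 54.7 CPM. The 5p arm of Mir34c exceeded its 3p arm 26.3, 11.9 and 32.6 times in the 3 libraries, whereas Mir34b was counted only as its 3p arm, since miR-34b-5p had 0 counts in every library. How reads that could come from either of the 5p arms, miR-34b-5p and miR-34c-5p, were counted was not checked here. Over the pooled 429451 TMV counts, 0 counts allow miR-34b-5p up to 6.99 CPM, a limit that holds only if none of its reads were counted as miR-34c-5p. miR-34b-3p was 4.50 times miR-34c-3p in replicate 1 (95% exact interval 2.24 to 10.0) and 2.93 times in replicate 3 (1.56 to 5.82), but in replicate 2 the ratio was 1.11 (0.566 to 2.17), so the order of these 2 arms was not resolved there. Counts of different miRNAs are not scaled for how efficiently each sequence enters a library, so such ratios compare counts, not molecules.

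**Figure D1:**
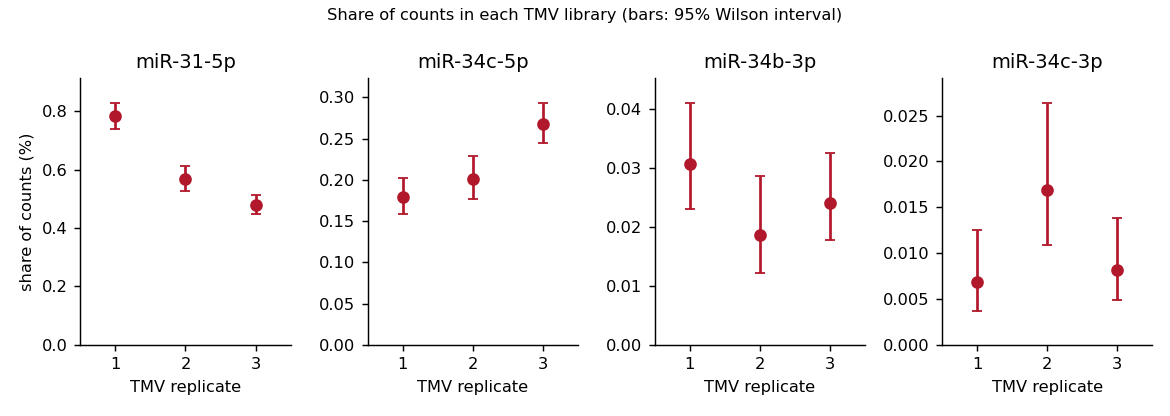
Share of counts (percent, y axis, from 0) of 4 members in each of the 3 TMV libraries (x axis), with 95% Wilson intervals. miR-31-5p is highest in replicate 1 at 0.784% and miR-34c-5p is highest in replicate 3 at 0.268%.

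miR-34a-5p, the member most widely expressed in adult tissues, was rare in TMVs and in plasma. It had 2 counts in each TMV library, 1 count in C26-bearing plasma, in replicate 2, and 2 counts in control plasma, both in replicate 1. Pooled over each group this was 14.0 CPM in TMVs (95% exact Poisson interval 5.13 to 30.4), 4.32 CPM in C26-bearing plasma (0.109 to 24.1) and 6.23 CPM in control plasma (0.754 to 22.5). The 3 intervals overlap, so no difference was detectable at this depth. The pooled ratio of TMVs was 3.24 to C26-bearing plasma (95% exact interval 0.393 to 149) and 2.24 to control plasma (0.401 to 22.7). A large excess in TMVs was therefore not excluded. In TMVs miR-34c-5p was 131.5, 113.0 and 228.5 times miR-34a-5p. The relative miR-449a-5p had 0, 1 and 0 counts in TMVs and 0 in all 10 plasma libraries. In bulk vesicle RNA, fewer vesicles from a cell type and less of a miRNA per vesicle cannot be told apart.

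In plasma miR-31-5p was rare, with and without a tumour in the mouse. It had 1, 3, 4, 0, 0 and 0 counts in C26-bearing replicates 1 to 6, which averaged 25.3 ± 28.5 CPM (SD, n = 6). It had 2, 3, 4 and 0 counts in control replicates 1 to 4, which averaged 25.0 ± 22.9 CPM (SD, n = 4). All 3 TMV libraries, the lowest at 4807 CPM, lay above all 10 plasma libraries, the highest at 60.5 CPM, and the mean in TMVs was 242 times that in C26-bearing plasma and 244 times that in control plasma. With miR-5119 left out of the totals the first ratio was 130.5, and with TMM-scaled CPM (library sizes corrected for composition) it was 134.6 for C26-bearing and 161.3 for control plasma. Without control replicate 2, whose 3 counts gave the highest control value of 53.8 CPM, the ratio to control plasma was 396.

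miR-34c-5p was found as 1 count in C26-bearing replicate 5 and 1 count in control replicate 2, with 0 in the other 8 plasma libraries. Its mean of 2162 CPM in TMVs stood against 5.99 ± 14.7 CPM in C26-bearing plasma (SD, n = 6) and 4.48 ± 8.97 CPM in control plasma (SD, n = 4), ratios of 361 and 482. From pooled counts the TMV level was 510 times that of C26-bearing plasma (95% exact interval 91.4 to 20178) and 707 times that of control plasma (127 to 27969), intervals that cover counting error only. Leaving out the 1 library that held the count gave a bound: at least 147-fold higher in TMVs than in C26-bearing plasma without replicate 5, and at least 191-fold higher than in control plasma without replicate 2, against 3 counts over the group. miR-34b-3p was at least 18.9-fold higher in TMVs than in C26-bearing plasma, where all 6 libraries had 0 counts, and its 2 counts in control plasma were both in replicate 2. Against control plasma its pooled level was 40.0 times higher in TMVs (95% exact interval 10.8 to 335). miR-34c-3p had 0 counts in all 10 plasma libraries, so against 3 counts over each group its mean in TMVs was at least 8.22-fold higher than in C26-bearing plasma and at least 11.4-fold higher than in control plasma. With the counting error of both sides, the 95% exact lower limits of the pooled ratios to C26-bearing plasma were 6.02 for miR-34c-3p and 15.4 for miR-34b-3p, and that of miR-34c-3p to control plasma was 8.35.

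**Figure D2:**
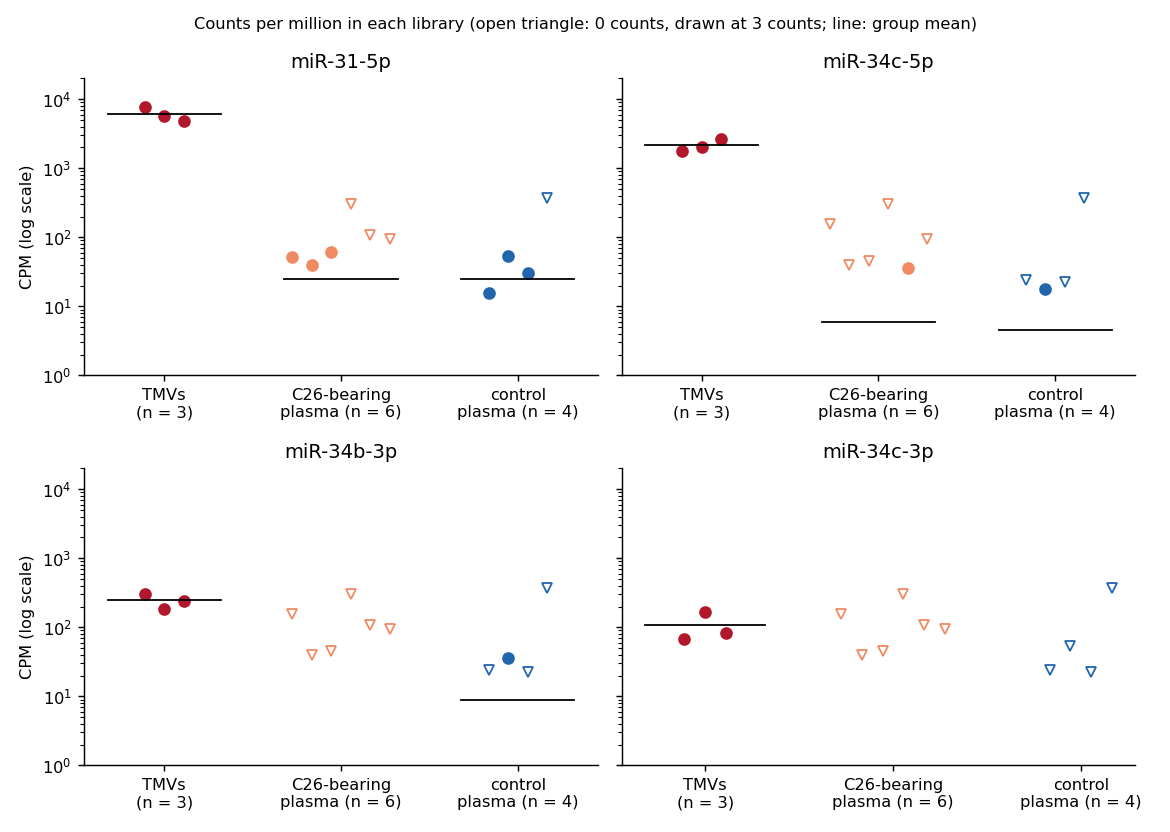
CPM of 4 members (y axis, log scale) in each library of TMVs, C26-bearing plasma and control plasma; filled points are libraries with a count, open triangles are libraries with 0 counts drawn at the value 3 counts would have, and lines are group means with 0 counts taken as 0. For miR-31-5p the TMV libraries lie between 4807 and 7835 CPM, above every plasma value, while the triangles of the shallowest libraries, at 305.3 and 376.8 CPM, lie above every TMV value of miR-34c-3p.

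The members were set beside all miRNAs with at least 10 counts in each TMV library, 167 in all. This minimum was set on TMV counts alone, so miRNAs rare in TMVs are missing from the 167 and from their ratios. Every TMV library lay above every plasma library for 85 of them (50.9%), and for 31 (18.6%, or 2.91% of the 1066 miRNAs listed in both tables) the TMV mean was also at least 10 times both plasma means. Of the 6 members, 4 met both conditions (miR-31-5p, miR-34c-5p, miR-34b-3p and miR-34c-3p), a count that follows from how the members were chosen. For miR-34b-3p and miR-34c-3p the first condition rests on 0 taken as 0, since the value of 3 counts in the shallowest plasma libraries, 305.3 and 376.8 CPM, exceeds the lowest TMV value of each, 186.9 and 68.3 CPM. miR-34c-3p met the second only because 0 was taken as 0, since its bound against C26-bearing plasma is 8.22. By mean TMV level the first 10 of the 31 were let-7c-5p at 63655 CPM, miR-99b-5p, miR-125b-5p, miR-5099, miR-152-3p, miR-218-5p, miR-221-3p, miR-103-3p, miR-31-5p and miR-214-3p at 4886 CPM. Among the 167, miR-34c-5p had the highest and miR-31-5p the second highest ratio of TMV to plasma against either plasma group, with bounds taken at their value, and the medians were 3.31 against C26-bearing and 4.07 against control plasma. The next highest smaller ratio was 82.0, for miR-9-5p, a miRNA of the nervous system. Apart from miR-34c-3p, the last 2 inside the 10-fold limit were miR-5099 at 10.6 and miR-708-5p at a bound of 10.5, and the first 2 outside were miR-100-5p at 9.66 and let-7e-5p at 9.62. TMVs and plasma were prepared from different starting material and counted in separate tables, so a difference of material and a difference of run cannot be told apart.

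**Figure D3:**
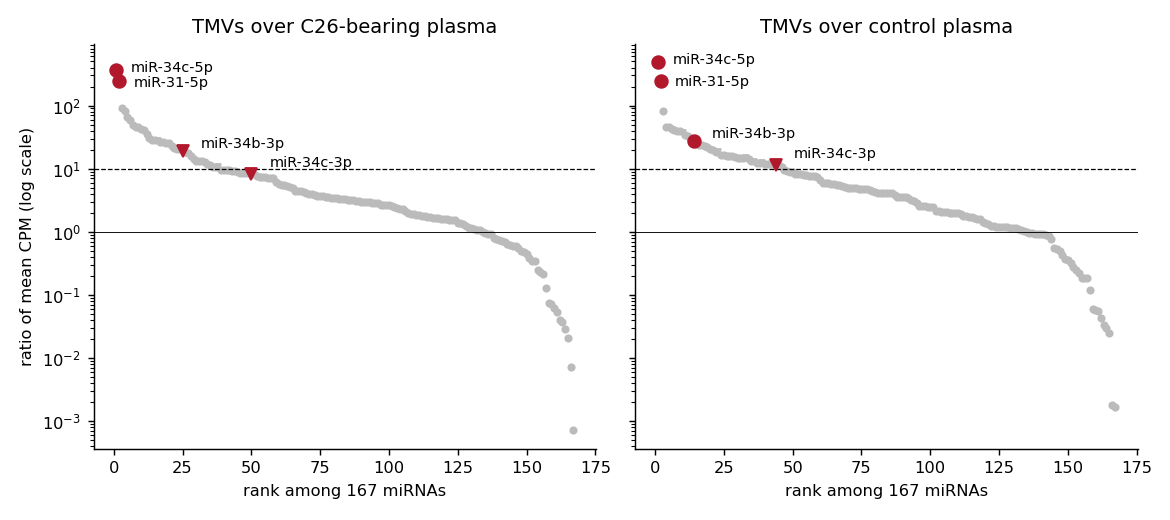
Ratio of mean CPM in TMVs to that in C26-bearing plasma (left) and control plasma (right), log scale, for the 167 miRNAs with at least 10 counts in each TMV library in falling order; triangles are lower bounds where the plasma group had 0 counts, and the dashed line marks 10. miR-34c-5p and miR-31-5p stand first and second in both panels, with ratios of 361 and 242 to C26-bearing plasma.

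The plasma counts can be read against the count that each library would hold if the miRNA had its TMV share there. For miR-31-5p that number ran from 48.7 in control replicate 4 to 803 in control replicate 3, so every plasma library was deep enough to hold it. Over the 6 C26-bearing libraries 8 counts were found where the TMV share would give 1415, which is 0.565% of the TMV share (95% exact Poisson interval 0.244% to 1.11%). Over the 4 control libraries 9 counts were found where it would give 1962, or 0.459% (0.210% to 0.871%). The 2 intervals overlap. With miR-5119 left out of the totals the C26-bearing value was 0.853%, with an upper limit of 1.68%, and the control value was 0.466%.

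For miR-34c-5p the TMV share would give 17.2 to 284 counts per plasma library, and 8 of the 10 held 0. The 1 count in C26-bearing plasma was 0.200% of the TMV share, with an upper limit of 1.11%, and the 1 count in control plasma was 0.144%, with an upper limit of 0.803%. The rarer arms could not be read in every library. At its TMV share miR-34b-3p would exceed 3 counts in 8 of 10 plasma libraries, of which 7 held 0, and miR-34c-3p would do so in 6, all at 0. In the shallowest library, control replicate 4, miR-34c-3p at its TMV share would give 0.848 counts, so 0 counts there cannot be told apart from the TMV share.

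**Figure D4:**
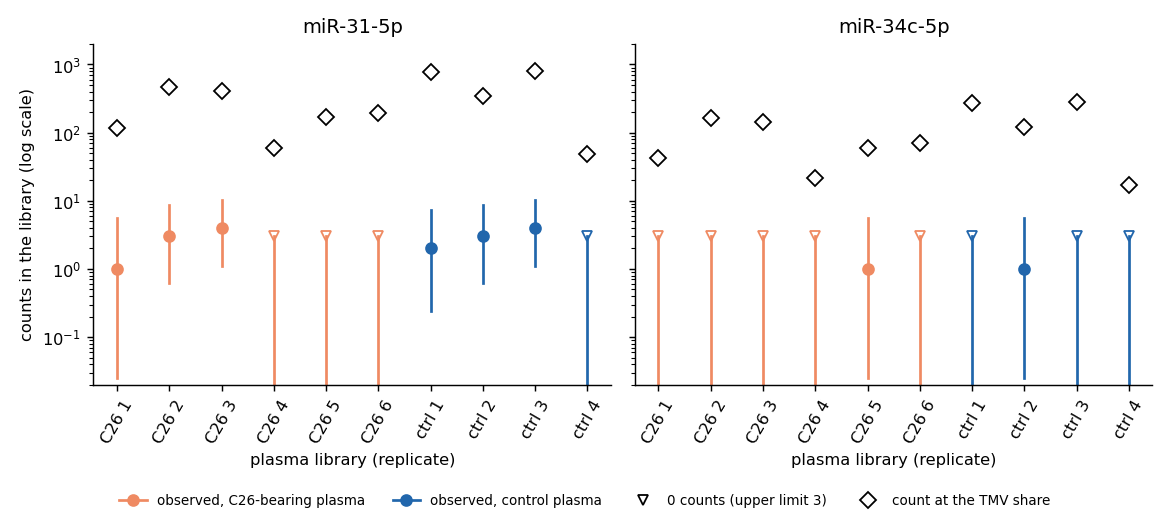
Counts of miR-31-5p (left) and miR-34c-5p (right) in each plasma library (log scale): points are observed counts with 95% exact Poisson intervals, open triangles are 0 counts with the limit of 3, and diamonds are the counts that the TMV share would give at that depth. The diamonds lie above every interval, from 48.7 to 803 counts for miR-31-5p and from 17.2 to 284 for miR-34c-5p, in C26-bearing and control libraries alike.

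The design also sets plasma vesicles of C26-bearing mice against those of healthy mice. No difference was detected for miR-31-5p. It had at least 1 count in 3 of 6 C26-bearing and in 3 of 4 control libraries, and the group means differed by 0.243 CPM (two-sided exact permutation test over the 210 splits, p = 1, where 0.00476 is the smallest value possible). The pooled level in C26-bearing plasma was 34.5 CPM and that in control plasma 28.0 CPM, a ratio of 1.23 with a 95% exact interval of 0.414 to 3.60 that covers counting error only. With counting error alone, a ratio anywhere in that interval was not distinguishable from 1. The spread between libraries is not part of that interval, so ratios outside it were not excluded. The liver miRNA miR-122-5p held 0.508% to 8.19% in C26-bearing and 5.87% to 25.5% in control plasma, ranges that overlap, and its part was not tested.

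In the model across miRNAs, edgeR's quasi-likelihood test called 0 of 130 (0.0%) at an adjusted p of 0.05, with 15 at an unadjusted p under 0.05 and 4 called by DESeq2. The filter on low counts removed all 6 members. Without the filter edgeR called 4 of 955 (0.419%), none of them a member. The liver miRNA miR-122-5p was 1 of these 4 (edgeR adjusted p = 0.01035), but with the filter it was not called (edgeR adjusted p = 0.395). In the fit without the filter miR-31-5p had a log2 fold change of 0.13 (SE 1.59, 2 SE on either side -3.05 to 3.30, edgeR adjusted p = 0.964). With the miR-5119 part of the library as a term it was -1.43 (SE 2.10), so its sign was not resolved. Without control replicates 2 and 3, whose names carry 2 numbers, it was 1.09. The other 3 members with any plasma count had at most 2 counts in a group, for which no fold change is given. None of the 4 members fitted had an unadjusted p under 0.05 in edgeR without the filter, where 95 of all 955 did. DESeq2 without the filter called none of the 4 members and 0 of all 955. Neither result is thus particular to the members.

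Libraries rich and poor in miR-5119 were also looked at apart. All 8 counts of miR-31-5p in C26-bearing plasma were in the libraries rich in miR-5119, 46.6 CPM pooled (95% exact Poisson interval 20.1 to 91.9). The 1 control of that part, replicate 4, had 0 counts (upper limit of the same interval 463.3 CPM). In the libraries poor in miR-5119 the 2 C26-bearing ones had 0 counts in 60080 (upper limit 61.4 CPM), and the 3 controls had 9 counts in 313164, or 28.7 CPM (95% exact Poisson interval 13.1 to 54.6). Among the C26-bearing libraries the intervals of the rich and the poor ones overlap, and replicate 4, rich in miR-5119, also had 0 counts of miR-31-5p. The part of miR-5119 in the result was not tested.

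The miRNAs whose levels lay nearest to the members were found by the root mean square difference of log2(CPM + 20) over all 13 libraries, among the 166 others with at least 10 counts in each TMV library. The nearest to miR-31-5p was miR-34c-5p at 1.33, followed by miR-9-5p at 1.33, miR-196b-5p, which lies in a Hox gene cluster, at 1.61, miR-298-5p at 1.66 and miR-471-5p at 1.73, where the median over all was 3.23. The nearest to miR-34c-5p was miR-9-5p at 0.95, followed by miR-196b-5p at 1.27, miR-298-5p and miR-31-5p at 1.33 and miR-125a-3p at 1.41, where the median was 3.46. miR-9-5p averaged 2942 ± 461 CPM in TMVs (SD, n = 3), 31.8 ± 42.9 CPM in C26-bearing plasma (SD, n = 6) and 35.9 ± 71.7 CPM in control plasma (SD, n = 4), and it stayed among the 5 nearest to either member with a pseudocount of 5 or 100 and with miR-5119 left out. Of the 13 libraries behind the measure 10 are plasma libraries, in which these miRNAs had few or 0 counts. The order of the nearest miRNAs changed with the pseudocount and with the totals, and miR-34c-5p was nearest to miR-31-5p in none of these other settings. miR-196b-5p came first at a pseudocount of 5, and miR-9-5p at 100 and with miR-5119 left out.

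Other miRNAs linked to p53 were set beside the members. Of 11 listed, 5 had at least 10 counts in each TMV library, and 0 of these met the 10-fold pattern, where 18.6% of all 167 did. The median ratio of TMVs to plasma for the 5 was 0.720 against C26-bearing and 1.11 against control plasma, beside 3.31 and 4.07 over the 167. Both sets were kept by their counts in TMVs, so these medians leave out the listed miRNAs that were rare in TMVs. miR-192-5p, an intestinal and hepatic miRNA that p53 can raise, averaged 472 ± 126 CPM in TMVs, 8832 ± 7199 CPM in C26-bearing plasma and 18621 ± 8667 CPM in control plasma. miR-143-3p, whose processing p53 is known to promote, averaged 42113 ± 7447 CPM in TMVs, 12736 ± 8832 CPM in C26-bearing plasma and 12999 ± 6577 CPM in control plasma. Its relative from the same cluster, miR-145a-5p, was at 144 ± 50.2 CPM in TMVs, 200 ± 205 CPM in C26-bearing plasma and 130 ± 249 CPM in control plasma. Between the plasma groups 6 of the 11 were tested and edgeR called 0, with 1, miR-215-5p, at an unadjusted p under 0.05 and 0 called by DESeq2. Over all 130 tested, edgeR called 0, DESeq2 called 4 and 15 had an unadjusted p under 0.05. The median log2 fold change of the 6 was -0.45, against 0.01 over all 130.

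Of 11 miRNAs often raised in colorectal tumours, 7 had at least 10 counts in each TMV library, and 1, miR-182-5p, met the 10-fold pattern, where 18.6% of all 167 did. miR-182-5p averaged 3677 ± 288 CPM in TMVs, 181 ± 138 CPM in C26-bearing plasma and 90.0 ± 25.5 CPM in control plasma. Its cluster partner miR-183-5p averaged 2675 ± 216 CPM in TMVs, 101 ± 72.7 CPM in C26-bearing plasma and 288 ± 130 CPM in control plasma, a ratio to control of 9.28. miR-21a-5p, a widely expressed miRNA raised in many tumours, had a TMV level 3.42 times that of C26-bearing plasma and 7.96 times that of control plasma, where the ratios of miR-31-5p were 242 and 244. miR-135b-5p and miR-224-5p had 0 counts in TMVs. The median ratio of the 7 was 3.42 against C26-bearing and 5.65 against control plasma, beside 3.31 and 4.07 over the 167. These medians too leave out miRNAs rare in TMVs. Between the plasma groups 3 of the 11 were tested and edgeR called 0, with 1, miR-21a-5p, at an unadjusted p under 0.05 and 1 called by DESeq2, beside 0, 15 and 4 of all 130. The median log2 fold change of the 3 was 1.37, against 0.01 over all 130.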

How the data were processed

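Vesicles were pelleted by ultracentrifugation and small RNA libraries were read as single reads, per the labels' protocols. Per the submitters' processing notes, bcl2fastq and cutadapt 1.10 were used, while no source used here gives the aligner, counter, miRNA annotation or build. The authors deposited whole-number counts of reads for each mature miRNA, not normalized, in 2 tables (1164 and 1354 miRNAs, 1066 in both). The members and lists were chosen with earlier results of these data known.

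CPM and shares used the total of each table's column. Groups and replicate numbers came from the titles. Intervals and the floor of 3 counts cover counting error only, because PCR reads counted without molecular identifiers need not come from separate molecules. The plasma groups were compared with edgeR 4.0.16 in R 4.3.3 (TMM, filterByExpr with a minimum count of 10, robust quasi-likelihood F test, Benjamini-Hochberg adjustment at 0.05, log2 fold changes C26-bearing minus control), and with a fit without the filter. Both fits were also run on simulated counts, which held no differences in miR-5119 content between libraries. That run does not show how the fits perform on these plasma libraries. The SE beside an edgeR log2 fold change is its absolute value over the square root of the F statistic, an approximation that edgeR does not itself report. DESeq2 1.42.0 was an alternative. Exact tests used scipy 1.17.1. Genes named are the members, miR-31-3p, miR-449a-5p, 2 fixed lists, the 5 miRNAs nearest each of 2 members and the first 10 miRNAs with the TMV pattern. Those at the pattern's limits and the unadjusted calls were named after their values were seen.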

Additional observations from a re-analysis of the deposited data

Results flagged for a closer look

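In 5 of the 12 sets of plasma CPM values looked at (6 members in 2 plasma groups), 1 library stood far from its group by Dixon's criterion. Each of these was a library with 1 or 2 counts in a group where the others had 0, so the criterion marks single detections. For miR-34a-5p they were C26-bearing replicate 2 at 13.1 CPM and control replicate 1 at 15.9 CPM. For miR-34b-3p it was control replicate 2 at 35.9 CPM. For miR-34c-5p they were C26-bearing replicate 5 at 35.9 CPM and control replicate 2 at 17.9 CPM. Control replicate 2 thus held both the miR-34b-3p and the miR-34c-5p counts of the control group. The sets of miR-34b-5p and miR-34c-3p in both groups, and of miR-34b-3p in C26-bearing plasma, were all 0 and could not be flagged.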

How the results depend on the processing

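Shares of the 4 abundant members in TMVs were recomputed under the other totals and with each TMV library left out. The ranges were 0.525% to 0.676% for miR-31-5p, 0.190% to 0.235% for miR-34c-5p, 0.0214% to 0.0274% for miR-34b-3p and 0.00752% to 0.0126% for miR-34c-3p. With 3 libraries, leaving out 1 cannot move a mean by as much as 1 SD. Totals without miR-5119 could hardly move a share, since miR-5119 held at most 0.0382% of TMV counts. These ranges are therefore description and not a test. With each library left out in turn, the TMV ratio of miR-31-5p ran from 201.5 to 335 against C26-bearing and from 183 to 396 against control plasma, and that of miR-34c-5p from a bound of 147 to 392 and from a bound of 191 to 523. TMM-scaled CPM gave 134.6 and 161.3 for miR-31-5p and 279 and 330.5 for miR-34c-5p. Pooled counts gave 175.8 for miR-31-5p against C26-bearing plasma and 510 and 707 for miR-34c-5p. Totals without miR-5119 gave 130.5 for miR-31-5p against C26-bearing plasma. Without libraries under 10000 counts the ratio of miR-34c-5p to control plasma was 362. In libraries rich in miR-5119 the ratios of miR-31-5p were 161 and a bound of 16.2, and those of miR-34c-5p bounds of 124 and 5.74. In the poor ones they were a bound of 122 for miR-31-5p against C26-bearing plasma, and 120 and 362 for miR-34c-5p. The count with the 10-fold pattern was 54 at 5-fold and 16 at 20-fold, and 27 to 37 with each library left out. With 3 counts of the group in place of 0, an alternative chosen after seeing the data, it was 30, with 3 members. Between plasma groups the number called was 4 with DESeq2, 4 without a filter, 2 with miR-5119 content as a term and 0 to 1 with each library left out. The log2 fold change of miR-31-5p was -0.023 with total counts and -1.43 with the miR-5119 term, ran from -0.49 to 0.46 with each library left out, and was 1.09 without control replicates 2 and 3. The filter on low counts left it no value. Its exact permutation p ran from 0.619 to 1 with each library left out. Replicate numbers were not treated as pairs: deviations of same-numbered C26-bearing and control libraries correlated at -0.351, -0.284, -0.326 and 0.157, and 1 of 4 numbers correlated best with its own. With a replicate block edgeR called 0 and miR-31-5p had a log2 fold change of 0.95. Of the 5 miRNAs nearest to miR-31-5p, 2 were kept with a pseudocount of 100. Of those nearest to miR-34c-5p, 1 was kept with a pseudocount of 5 and 2 with miR-5119 left out of the totals. The causes of these changes were not tested.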
